A study of Mus musculus with 9 samples.

Results

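The 42 genes described here encode heterogeneous nuclear ribonucleoproteins (hnRNPs), SR proteins and related regulators of alternative splicing. They were picked by symbol. The families Hnrnp (older name Hnrp), Srsf, Tra2, Ptbp, Celf, Mbnl and Rbfox gave 44 of the 12550 entries in the deposited table. Hnrnpk, the target of a hairpin in this study, and Srsf3 were left out. The remaining entries were 20 hnRNP, 11 SR (Srsf and Tra2), 3 PTB, 4 CELF, 3 MBNL and 1 RBFOX genes, and all 42 passed the filter on low values. One symbol, Hnrnpr, stood on a pair of entries; the second is absent from the GENCODE M21 annotation and may share reads with the first, so its values are uncertain.

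The cells were mouse embryonic fibroblasts (MEFs) of strain C57Bl/6cJ, transfected in every group with plasmids for Oct4, Sox2, Klf4 and c-Myc and grown in a serum-containing embryonic stem cell medium with leukemia inhibitory factor (LIF). A pretroSuper construct gave each arm a short hairpin RNA against luciferase (control), Hnrnpk or lincRNA-p21 (gene Trp53cor1). RNA was sequenced on days 6, 9 and 12, with 1 library per arm and day and 9 libraries in all. The labels call the cells partially reprogrammed and each library merged replicates, so a library stands for a mixed culture and variation between replicates could not be measured. In bulk RNA, fewer cells of a type and less RNA per cell cannot be told apart. The labels name 1 hairpin target per arm and do not say how many hairpin sequences were used.

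Splicing removes introns and joins exons, and the choice of exon depends on proteins that bind the transcript near the splice sites. SR proteins typically bind enhancer sequences in exons and help the spliceosome to recognise them. Many hnRNPs and PTB proteins act against exon inclusion, while CELF, MBNL and RBFOX proteins act for or against it according to where they bind. Several families are known for tissue-specific programs: Ptbp1 represses neuronal exons, Mbnl1 and Mbnl2 favour the exon pattern of differentiated cells over that of embryonic stem cells, and Celf4 and Celf5 are best known from the brain.

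Values are the authors' normalised signal. The number of reads behind it is unknown, and no source used here says whether it was scaled by transcript length, so levels were compared within a gene and not between genes. Differences are on a log2(signal + 10) scale, which understates the change of genes with low values. Each was estimated with limma across all 12541 genes tested, from terms for arm and day; a gene is called where the Benjamini-Hochberg adjusted p is under 0.05. The p-values rest on how steady an arm's difference was over the days, or that of a day over the arms, since replicates were merged. Hnrnpk had a signal of 31243, 26944 and 23376 in control cells on days 6, 9 and 12 and of 11349, 17016 and 12793 in the Hnrnpk arm, a difference of -0.997 ± 0.162 (SE; adjusted p = 0.00824, limma). Trp53cor1 differed by -1.25 ± 0.15 in the lincRNA-p21 arm, short of the threshold (adjusted p = 0.0603, limma), and by -0.94 ± 0.15 in the Hnrnpk arm (adjusted p = 0.00752, limma). Of the marker lists, all 17 fibroblast genes were in the table. The summed signal of 12 epithelial markers was 6288.5 to 11858 on day 6 and 36025 to 59754.5 on day 12. That of 12 pluripotency markers was 1738.5 to 2265.5 on day 6 and 2926 to 14297.5 on day 12. Only 2 of 8 macrophage and 5 of 9 muscle markers were in the table.

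The mean signal over the 9 libraries is given for the ends of each family, as levels on the deposited scale that carry no comparison between genes. Among hnRNPs it was 227 for the second Hnrnpr entry and 63965 for Hnrnpa3, which coats nascent transcripts with its relatives Hnrnpa1 and Hnrnpa2b1. Among SR proteins it was 2057 for Srsf9 and 13784 for Srsf5. Ptbp2, the neuronal PTB protein, averaged 1024.5 and Ptbp1 13467. Celf5 averaged 247 and the broadly expressed Celf1 6240. Mbnl3 averaged 955 and Mbnl1 4762, and Rbfox2, the RBFOX gene in the table, 6847. The largest total signal of a library was 0.025% above the smallest. The signal moved in steps that libraries shared, and these were coarse at high levels. Hnrnpu, a nuclear scaffold protein, held 4 distinct values in 9 libraries, Hnrnpa3 held 6 and Hnrnpa2b1 held 7, and 7 of the 42 genes repeated a value. They include Ptbp2, which repeated 994.5, and Srsf2, which repeated 9311.5. Differences of these genes are therefore differences between steps, and their size may not be a ratio of RNA amounts. Hnrnpa1 and Hnrnpa3 also have near-identical processed copies in the genome, with which reads may have been shared.

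The promoters of these genes are given as description, and their part in any result was not tested. RefSeq promoter windows (GRCm38.p6, 250 bases before to 50 after a start) were found for 36 of the 42 genes, 57 windows in all. The median ratio of observed to expected CpG was 0.9 in these windows, 0.75 in the 11962 windows of all genes in the deposited table and 0.384 in the 32851 windows of the RefSeq table. It was 0.963 for hnRNP genes, 0.956 for SR genes, 0.579 for MBNL genes and 0.515 for CELF genes. The E-box CACGTG, which reads the same on both strands and is a known binding motif of c-Myc, stood in 7 of the 57 windows (12.28%), against 9.9% of windows of genes in the deposited table and 7.15% of all windows. It stood in 5 of 26 hnRNP windows and 0 of 14 SR windows, too few to tell the families apart. A match is a description of letters and not a binding site. The 150 bases before the start are shown for 4 genes that the results turn on: the SR-like activators Tra2a and Tra2b, whose difference from control rose over the days, the hnRNP A/B protein Hnrnpa3 and the CUG-binding protein Celf5. Capitals mark CpG dinucleotides.
Tra2a: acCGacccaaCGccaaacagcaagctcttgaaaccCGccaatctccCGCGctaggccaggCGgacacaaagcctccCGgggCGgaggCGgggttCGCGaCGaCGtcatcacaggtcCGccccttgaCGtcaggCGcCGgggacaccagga
Tra2b: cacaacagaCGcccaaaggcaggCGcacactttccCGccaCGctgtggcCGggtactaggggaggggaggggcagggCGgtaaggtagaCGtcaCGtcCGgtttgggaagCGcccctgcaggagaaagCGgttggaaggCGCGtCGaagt
Hnrnpa3: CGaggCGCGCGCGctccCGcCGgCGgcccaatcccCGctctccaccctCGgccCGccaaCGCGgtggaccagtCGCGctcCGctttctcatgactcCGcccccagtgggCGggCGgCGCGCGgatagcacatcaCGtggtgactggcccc
Celf5: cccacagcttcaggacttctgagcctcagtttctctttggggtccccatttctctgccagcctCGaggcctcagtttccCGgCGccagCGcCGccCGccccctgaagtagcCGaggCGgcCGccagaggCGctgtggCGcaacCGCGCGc
The Tra2a stretch lies at chr6:49264053-49264202 on the minus strand and holds 17 CpG. The Tra2b stretch lies at chr16:22266006-22266155 on the minus strand and holds 14 CpG. The Hnrnpa3 stretch lies at chr2:75659109-75659258 on the plus strand, holds 23 CpG, and has its E-box from base 133, which is 18 bases before the start. An annotated exon of the miRNA gene Gm24574 overlaps this stretch. The Celf5 stretch lies at chr10:81482710-81482859 on the minus strand and holds 14 CpG.

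From day 6 to day 9, 9 of the 42 genes rose and 5 fell in the comparison over the 3 arms (limma, adjusted p under 0.05). That is 21.4% higher and 11.9% lower, where 18.9% of all genes tested were called higher and 21% lower. The 9 that rose were 5 hnRNP entries (Hnrnpa3, Hnrnpa2b1, Hnrnpul2, Hnrnpa0 and the second Hnrnpr entry), Srsf5, Srsf7, Srsf9 and Ptbp3. The 5 that fell were 3 of the 4 CELF genes, Mbnl1 and Hnrnpul1. The call of the second Hnrnpr entry, at 225, 174 and 154.5 on day 6 and 310, 208.5 and 228.5 on day 9, was lost in 5 of 9 fits that left out 1 library, and without day 12 (adjusted p = 0.0527, limma).

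Hnrnpa2b1, an exon silencer that also carries RNA in the cytoplasm, had a signal of 36481.5, 20471 and 31274.5 in the control, Hnrnpk and lincRNA-p21 arms on day 6 and of 51319, 56825 and 56825 on day 9. All 3 libraries of day 9 lay above all 3 of day 6, a difference of 0.94 ± 0.20 (SE; adjusted p = 0.0064, limma). Hnrnpa3 went from 51322, 42076 and 29210 to 62336, 118715 and 62336, a difference of 0.96 ± 0.22 (adjusted p = 0.0103, limma). The day 9 library of the Hnrnpk arm held the largest value in the table, and the other 2 arms shared a step. The fibroblast marker Col1a2 held the same largest value in all 3 control libraries, so that value is a step shared between genes. Without the day 9 library of the Hnrnpk arm the Hnrnpa3 difference was 0.74 (adjusted p = 0.0577, limma), and without the day 6 library of the lincRNA-p21 arm it was 0.85 (adjusted p = 0.0567, limma). Hnrnpul2, an hnRNP U relative with a role in the response to DNA breaks, went from 6416, 5813 and 4880 to 8976.5, 10716 and 9686.5, with no overlap. Its difference was 0.78 ± 0.13 (adjusted p = 0.00246, limma), and its paralog Hnrnpul1 went the other way. Hnrnpul1 had 15277, 9766 and 9653 on day 6 and 7432.5, 8201 and 7232 on day 9, a difference of -0.57 ± 0.16 (adjusted p = 0.0224, limma). Its call was lost without the day 9 library of the control arm (adjusted p = 0.118, limma) or of the lincRNA-p21 arm (0.069), and its difference was -0.34 without the day 6 library of the control arm. Hnrnpa0, known for stabilising inflammatory mRNAs, went from 7687, 6103 and 6262 to 10210, 9169 and 11224 and did not overlap between days.

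Among SR proteins, Srsf5 had a signal of 12001.5, 9586 and 9329.5 on day 6 and of 17651, 15857 and 16512 on day 9 (0.70 ± 0.11 SE, adjusted p = 0.00196, limma). Every day 9 library lay above every day 6 library. Srsf7, which also serves in mRNA export, went from 2908.5, 2328 and 3314.5 to 3806.5, 4835.5 and 4666.5, and Srsf9 from 1929, 1602 and 1811 to 2308, 2087.5 and 2629.5; neither gene overlapped between days. The Srsf7 call was lost without the day 9 library of the control arm (adjusted p = 0.065, limma) or of the Hnrnpk arm (0.0851). That of Srsf9 was lost without the day 9 library of the Hnrnpk arm (0.109), or without the day 6 (0.0944) or day 9 (0.109) library of the lincRNA-p21 arm. The founding members of the family did not pass the test. Srsf1 had 9705, 8203.5 and 7873 on day 6 and 6748, 7971 and 7676 on day 9 (-0.20 ± 0.14 SE, adjusted p = 0.287, limma). The PTB genes differed as well: Ptbp3 went from 2776, 3238 and 2354 to 4325, 4300 and 3705.5 (0.57 ± 0.10 SE, adjusted p = 0.0031, limma), and Ptbp1 and Ptbp2 were not called.

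**Figure D1:**
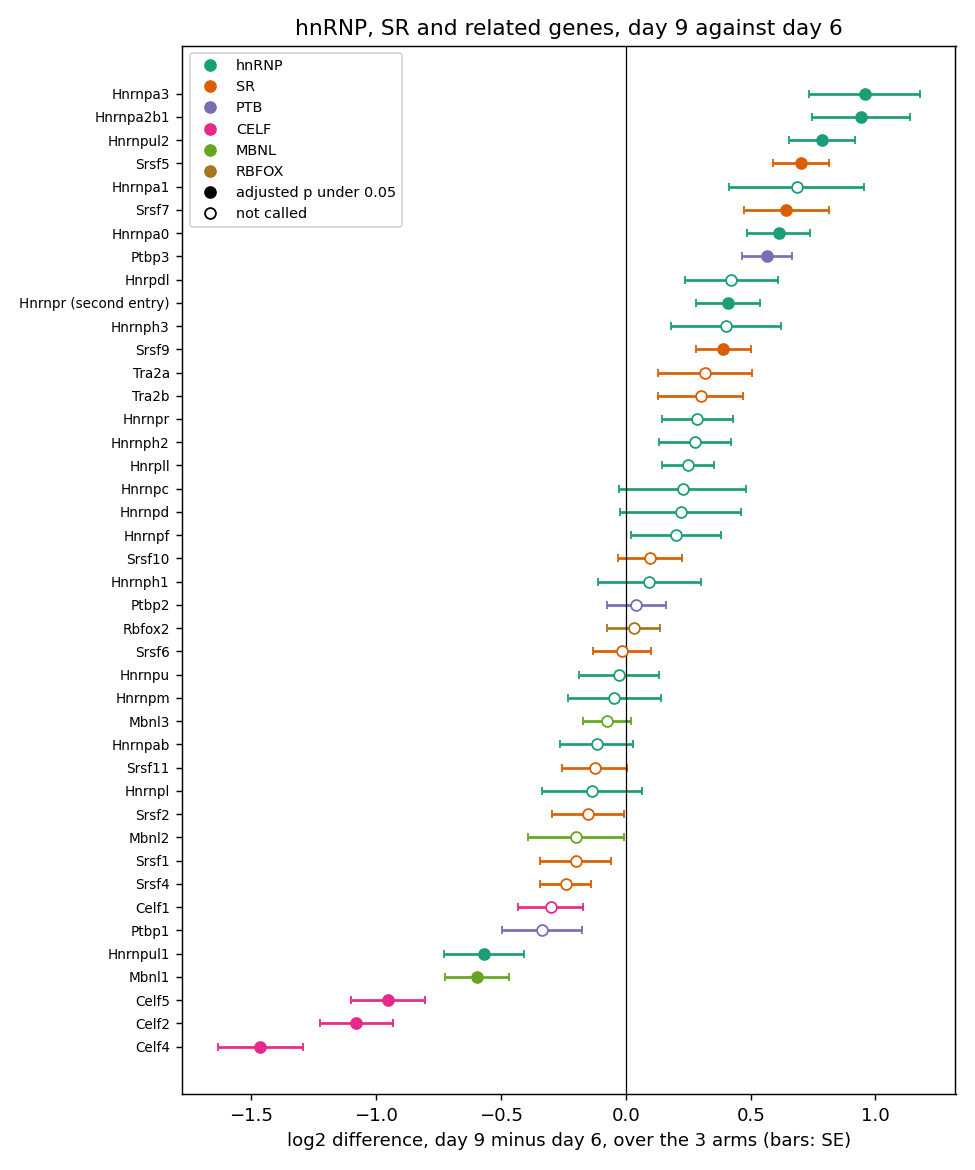
Log2 difference between day 9 and day 6 over the 3 arms for each of the 42 genes, with bars for the SE, colours for the family, filled points for genes with an adjusted p under 0.05 and open points for the rest. Hnrnpa3 (0.96) and Hnrnpa2b1 (0.94) stand at the high end and Celf4 (-1.46) at the low end.

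The CELF genes gave the widest falls among the 42 genes between days 6 and 9. Celf4 had a signal of 1455, 1322.5 and 1202 in the control, Hnrnpk and lincRNA-p21 arms on day 6 and of 485, 430 and 507.5 on day 9, 2.76-fold lower (-1.46 ± 0.17 SE, adjusted p = 0.000504, limma). Celf2, a regulator in brain, heart and T cells, went from 1001, 1258 and 924.5 to 483, 509 and 486, 2.11-fold lower (adjusted p = 0.000919, limma). Celf5 went from 331.5, 445.5 and 304 to 131, 257 and 169, 1.94-fold lower (adjusted p = 0.00175, limma). In each of the 3 genes all day 9 libraries lay below all day 6 libraries. Celf1 pointed the same way in the control and lincRNA-p21 arms and was not called. Mbnl1, a muscleblind protein, went from 5695, 7565 and 5492.5 to 3877, 4194 and 4213.5, also with no overlap (-0.59 ± 0.13 SE, adjusted p = 0.0072, limma). The calls of Celf2, Celf4, Celf5 and Mbnl1 held in all 9 fits that left out 1 library. Neural markers moved with the CELF genes: 8 of 12 listed were in the table, and 7 of the 8 fell. The summed signal of the neural markers, most of it from Stmn2, was 24456.5 to 47834.5 on day 6 and 14776.5 to 20253.5 on day 9. Of the 17 fibroblast markers 7 were called lower on day 9 and 1 higher (limma), where 21% of all genes tested were called lower and 18.9% higher. The part of either list in the CELF result was not tested.

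**Figure D2:**
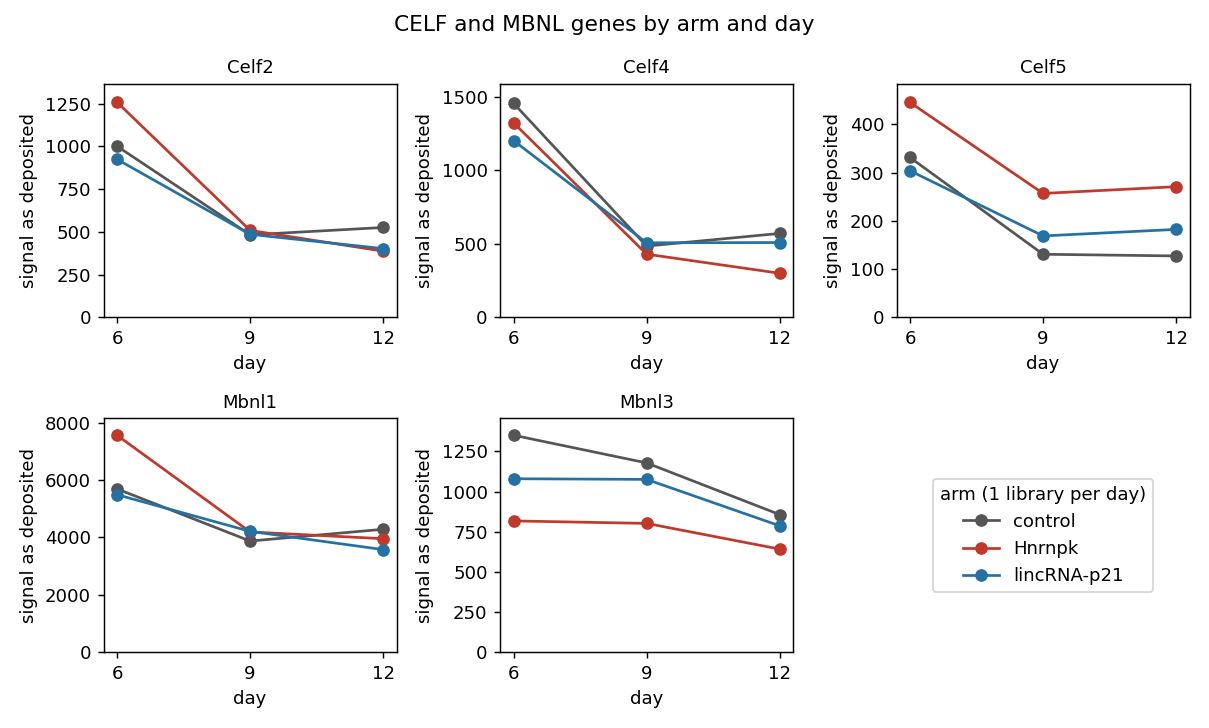
Signal as deposited (vertical axis, from 0) against day for 3 CELF and 2 MBNL genes, with 1 point per library and 1 line per arm. Celf2, Celf4 and Celf5 drop between days 6 and 9 in every arm, Celf5 stays highest in the Hnrnpk arm on each day, and Mbnl3 stays lowest there.

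The step from day 6 to day 9 differed between arms over the set as a whole. In the control arm 28 of the 42 genes were lower on day 9, with a median of -0.17 on the log2 scale. In the Hnrnpk arm 30 of 42 were higher, with a median of 0.34, and in the lincRNA-p21 arm 27 of 42 were higher, with a median of 0.23. The median over all genes tested lay between -0.02 and -0.01 in the 3 arms. Of all genes tested 50.5% were lower in the control arm, while 49.4% were higher in the Hnrnpk arm and 48.5% in the lincRNA-p21 arm. Hnrnpa1, the prototype hnRNP A protein, shows the pattern. It went from 36509 to 33760 in the control arm, from 14572 to 39350 in the Hnrnpk arm and from 25347 to 42099 in the lincRNA-p21 arm. Markers of dividing cells followed the same course: the summed signal of all 13 went from 66379.5 to 48391.5 in the control arm, from 39906.5 to 63820 in the Hnrnpk arm and from 44520.5 to 61349 in the lincRNA-p21 arm. Their part in the result was not tested. Without the control library of day 6, 22 of the 42 genes (52.4%) were called between days 9 and 6, 17 higher and 5 lower, and 44.7% of all genes tested were called. With all libraries the shares were 33.3% and 39.9%.

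From day 9 to day 12 none of the 42 genes was called (limma), where 0.526% of all genes tested were called higher and 0.128% lower. An unadjusted p under 0.05 (limma) was reached by 8 of the 42 and by 1769 of the 12541 genes tested. The values of the 42 genes nevertheless lay mostly on the low side: 36 of 42 differences were below 0, with a median of -0.21 against -0.03 for all genes tested. On day 12, 27 of the 42 genes (64.3%) were below day 9 in all 3 arms, against 28.4% of all genes tested. In the control arm 18 of 20 hnRNP and 11 of 11 SR genes were below their day 9 value, and Hnrnpa3 and Hnrnpu were unchanged. Of all genes tested 53.3% were below it and 46.2% above. The 3 genes with the most negative differences, picked out after their values were seen, were the mRNA-binding paralogs Hnrpdl and Hnrnpd and the G-tract-binding Hnrnph1. Hnrpdl had 5299, 5350 and 5761 on day 9 and 3312, 3392 and 4317 on day 12, with no overlap (-0.58 ± 0.19 SE, adjusted p = 0.226, limma). Hnrnph1 had 9270, 11580.5 and 11553 and then 5719, 8086.5 and 8564, a difference of -0.55 ± 0.21 (adjusted p = 0.296, limma). Hnrnpd had 6036, 7896 and 7565.5 and then 4211, 4787 and 5898 (-0.53 ± 0.24 SE, adjusted p = 0.364, limma). Without the day 6 libraries 5 genes were called lower (Hnrnpd, Hnrnph1, Hnrpdl, Mbnl3 and Srsf1), and without the control library of day 6 alone 3 (Hnrnph1, Hnrpdl and Mbnl3). In these fits 6.64% and 3.36% of all genes tested were called. Markers of dividing cells summed to 48391.5, 63820 and 61349 on day 9 and to 33603, 55589.5 and 53397 on day 12 in the control, Hnrnpk and lincRNA-p21 arms. Their part in the result was not tested.

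**Figure D3:**
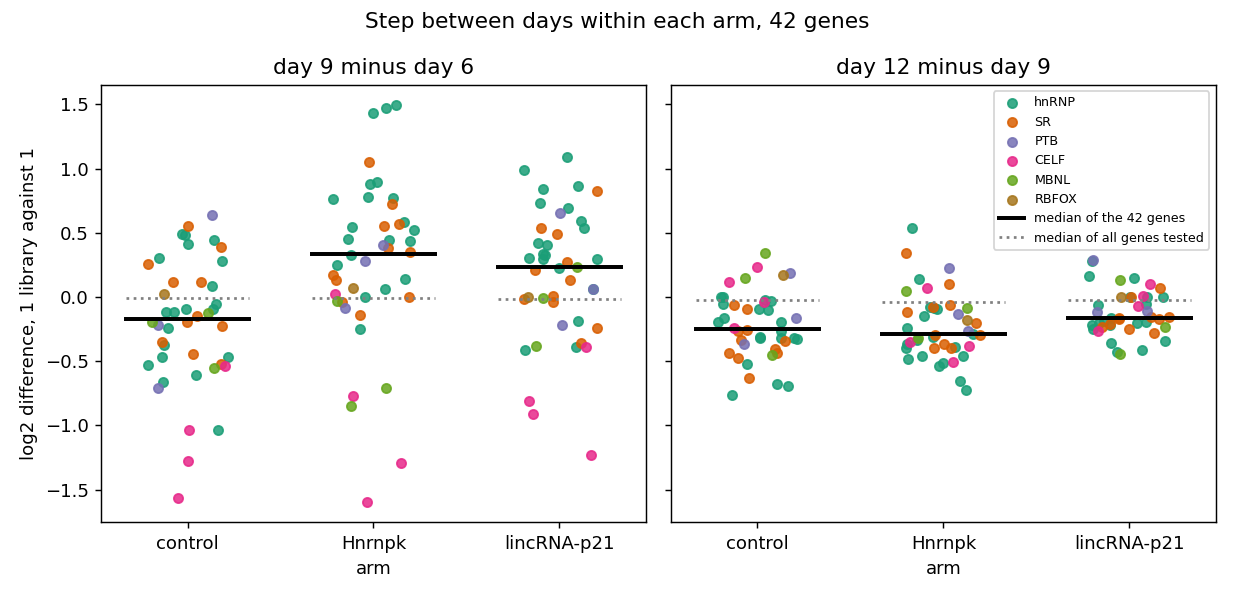
Log2 difference between successive days within each arm for the 42 genes, 1 library against 1, coloured by family, with a black bar at their median and a dotted line at the median of all genes tested. From day 6 to 9 the medians are -0.17 (control), 0.34 (Hnrnpk) and 0.23 (lincRNA-p21); from day 9 to 12 all 3 medians are below 0.

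Hnrnpk is itself an hnRNP, and the arm with its knockdown was set against control. Averaged over the 3 days, 1 of the 42 genes was higher (2.4%) and 2 were lower (4.8%) in the Hnrnpk arm than in control (limma). Of all genes tested, 5.58% were called higher and 6.94% lower. Celf5, at 331.5, 131 and 127.5 in control cells on days 6, 9 and 12, stood at 445.5, 257 and 271 in the Hnrnpk arm, 1.73-fold higher (0.79 ± 0.15 SE, adjusted p = 0.0128, limma). It was higher on all 3 days, although the arms overlap when days are pooled. Some markers of other cell types were also higher in the Hnrnpk arm: 3 of 8 neural, 8 of 12 pluripotency and 6 of 12 epithelial markers were called higher. Of the epithelial markers 1 was called lower. Nefl, a neurofilament gene, had 325.5, 192 and 158.5 in control and 1842, 1061.5 and 714 in the Hnrnpk arm. Syt1, another neural marker, went the other way, with 996, 688 and 753 in control and 800, 575.5 and 487 in the Hnrnpk arm. The summed neural signal, most of it from Stmn2, was 32041, 20253.5 and 14817.5 in control and 24456.5, 14776.5 and 20125 in the Hnrnpk arm. The part of these markers in the Celf5 result was not tested. Mbnl3, a muscleblind protein known to hold back muscle differentiation, had 1351, 1178.5 and 857 in control and 817.5, 802 and 642 in the Hnrnpk arm. Every Hnrnpk library lay below every control library, 1.47-fold on average (-0.56 ± 0.10 SE, adjusted p = 0.00972, limma). The second Hnrnpr entry had 225, 310 and 290 in control and 174, 208.5 and 197 in the Hnrnpk arm (-0.48 ± 0.13 SE, adjusted p = 0.0456, limma). Rbfox2, an RBFOX protein of stem and mesenchymal cells, was lower on each day without passing the test, with 7083, 7203 and 8133 in control and 6134.5, 6447 and 5703.5 in the Hnrnpk arm (-0.29 ± 0.11 SE, adjusted p = 0.109, limma).

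The Mbnl3 call was lost without the day 9 library of the Hnrnpk arm (adjusted p = 0.055, limma). The Celf5 call was lost without that library (0.067), without the control library of day 9 (0.0714) or without the Hnrnpk library of day 12 (0.056), and neither gene was called when only these 2 arms were fitted, or without day 9 or day 12. The call of the second Hnrnpr entry was lost in 7 of 9 fits that left out 1 library. Without the control library of day 6, 5 genes were called: Celf5, Hnrnpa3, Hnrnph1 and Hnrnpm were higher and Mbnl3 was lower, and 16.3% of all genes tested were called, against 12.5% with all libraries.

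Averages over days hid a reversal within the set. On day 6, 37 of the 42 genes were lower in the Hnrnpk arm than in control, as were 52.5% of all genes tested. The median was -0.31 against -0.02 for all genes tested. None of the 20 hnRNP genes and none of the 11 SR genes was higher. By day 9 the median was 0.12 and by day 12 it was 0.16, with 29 and 30 genes above control. Of all genes tested 50.8% and 48% were above control on these days. Hnrnpa1 gave the lowest value on day 6, at -1.32, followed by 0.22 on day 9 and 0.15 on day 12. The lincRNA-p21 arm, compared with the same control libraries, had medians of -0.28, 0.11 and 0.23. On day 6, 36 of 42 genes were lower, against 47.2% of all genes tested. Since both comparisons share their controls, a feature of the control library of a day enters both. On day 6 the marker sum for dividing cells was 66379.5 in control, 39906.5 in the Hnrnpk arm and 44520.5 in the lincRNA-p21 arm; on day 12 it was 33603, 55589.5 and 53397. The control sum of the 12 pluripotency markers on days 6, 9 and 12 was 1738.5, 3525.5 and 2926, of which Tdh alone gave 1205, 1991.5 and 1185. The sum of the 12 markers was 2265.5, 9445.5 and 14297.5 with the Hnrnpk hairpin, while the lincRNA-p21 hairpin gave 1845.5, 5176.5 and 10112. The part of either list in the reversal was not tested.

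**Figure D4:**
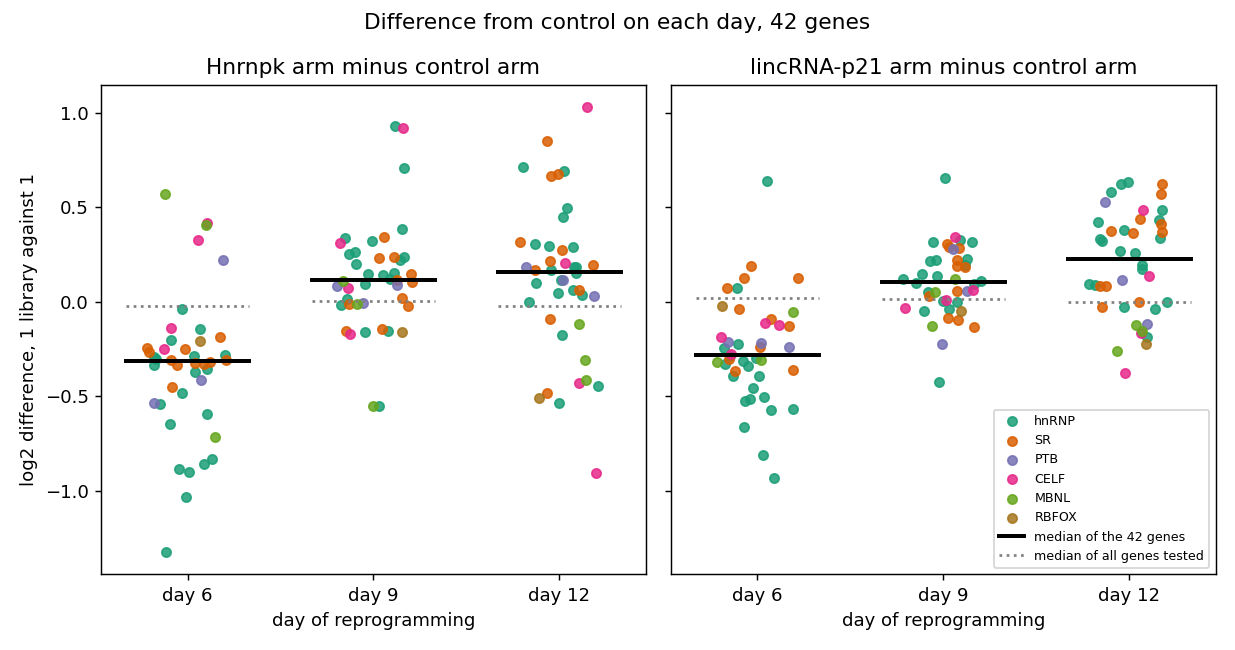
Log2 difference of each knockdown arm from the control arm on days 6, 9 and 12 for the 42 genes, 1 library against 1, coloured by family, with a black bar at their median and a dotted line at the median of all genes tested. The Hnrnpk medians are -0.31, 0.12 and 0.16 and the lincRNA-p21 medians -0.28, 0.11 and 0.23, and both panels use the same control libraries.

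A slope was fitted as the change of an arm's difference from control per 3 days and was tested against 0. A slope above 0 does not mean a steady course: the Hnrnpk medians were -0.31, 0.12 and 0.16 on days 6, 9 and 12. For the Hnrnpk arm 5 of the 42 genes (11.9%) were called with a slope above 0 and none with a slope below 0 (limma), where 5.06% of all genes tested were called higher and 4.3% lower. The median slope of the 42 genes was 0.26, against -0.01 for all genes tested. An unadjusted p under 0.05 (limma) was reached by 24 of the 42 and by 3814 of the 12541 genes tested. The 5 called genes were Tra2a, Tra2b, Srsf7, Hnrnph1 and Hnrnph3. Without the intensity trend Tra2a alone was called, and the other 4 had an adjusted p from 0.0515 to 0.0683 (limma). Tra2a and Tra2b, whose promoters are shown above, activate exons rich in GAA repeats. Tra2a had 3243, 3522 and 2657.5 in control on days 6, 9 and 12 and 2578, 3790.5 and 4812.5 in the Hnrnpk arm, a slope of 0.59 ± 0.10 (SE; adjusted p = 0.0236, limma). Control was the higher arm on day 6 and the lower on days 9 and 12. Tra2b had 7275, 7895.5 and 5090.5 against 5766.5, 8564 and 8134.5 (slope 0.51 ± 0.11, adjusted p = 0.0323, limma). Srsf7 had 2908.5, 3806.5 and 2814.5 against 2328, 4835.5 and 4465.5 (slope 0.49 ± 0.11, adjusted p = 0.0362, limma).

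Hnrnph1 and Hnrnph3 are related proteins, and Hnrnph1 binds runs of G near exons. Hnrnph1 had 12834.5, 9270 and 5719 in control and 8488, 11580.5 and 8086.5 in the Hnrnpk arm (slope 0.55 ± 0.13 SE, adjusted p = 0.0424, limma). Its control values fell at each step, while the Hnrnpk arm peaked on day 9. Hnrnph3 had 678.5, 571 and 559.5 in control and 362.5, 622 and 687 in the Hnrnpk arm (slope 0.59 ± 0.14 SE, adjusted p = 0.0404, limma). With 1 library left out, the slope ranged from 0.19 to 0.98 for Hnrnph3, from 0.24 to 0.86 for Hnrnph1 and from 0.28 to 0.71 for Srsf7. The lowest value came without the control library of day 6 for Hnrnph3 and Hnrnph1 and without the Hnrnpk library of day 6 for Srsf7. Calls came and went across the whole table. None of the 42 slopes was called without the control library of day 6, the Hnrnpk library of day 6 or any of the lincRNA-p21 libraries, where at most 0.279% of all genes tested were called. The count was 19 without the control library of day 9, 15 without the Hnrnpk library of day 9 and 10 without that of day 12. In these fits 22.2%, 20% and 9.27% of all genes tested were called, against 9.35% with all libraries. For the lincRNA-p21 arm no slope was called, among the 42 genes or among all genes tested (0% higher and 0% lower, limma). The median slope of the 42 genes was 0.24, against -0.01 for all genes tested. The unadjusted p was under 0.05 (limma) for 14 of the 42 and for 2107 of the 12541 genes tested. Srsf3, left out of the set, had 10438, 16234.5 and 8184 in control and 6424, 19032.5 and 21462 in the Hnrnpk arm (slope 1.04 ± 0.11 SE, adjusted p = 0.0167, limma).

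**Figure D5:**
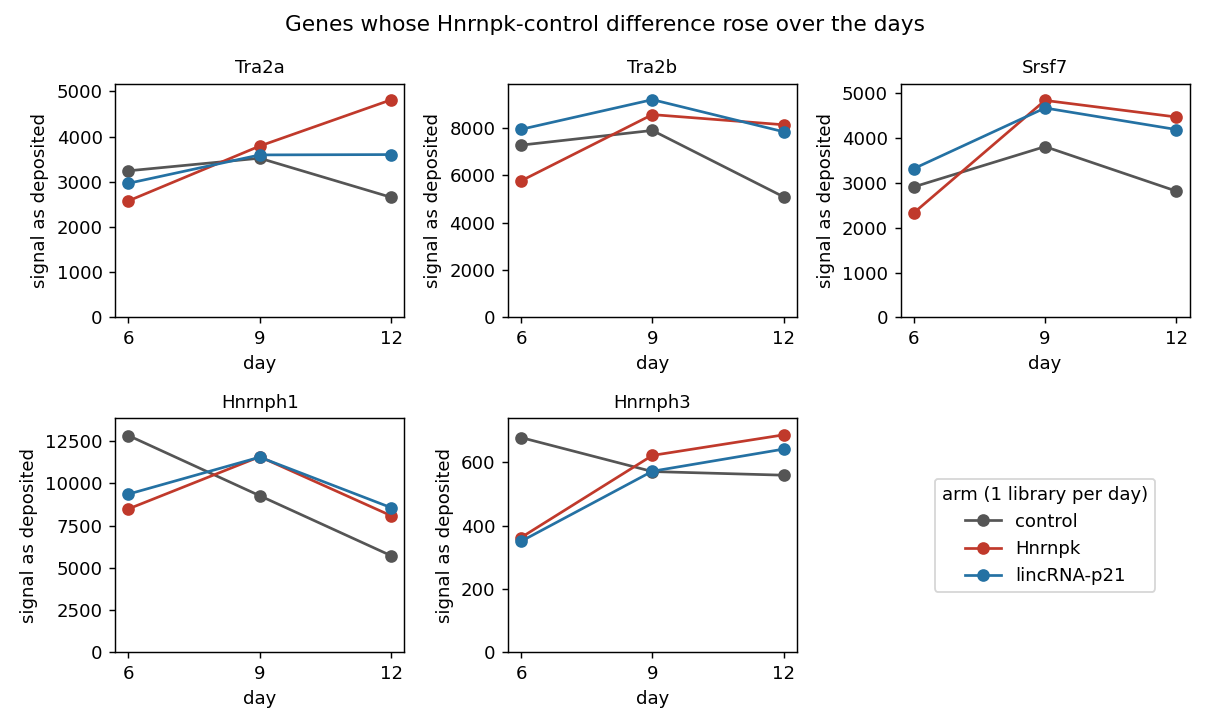
Signal as deposited (vertical axis, from 0) against day for the 5 genes whose difference between the Hnrnpk and control arms rose over the days, with 1 point per library and 1 line per arm. In each gene the Hnrnpk arm lies below control on day 6 and above it on days 9 and 12.

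In the lincRNA-p21 arm none of the 42 genes was called against control (limma, lowest adjusted p = 0.266). Among all genes tested 0.00797% were called higher and 0% lower. The unadjusted p was under 0.05 (limma) for 1 of the 42 and for 1730 of the 12541 genes tested. Srsf7 was higher on each day, at 3314.5, 4666.5 and 4186.5 against 2908.5, 3806.5 and 2814.5 in control, by 0.35 ± 0.17 (SE; adjusted p = 0.408, limma). Mbnl3 was lower on each day, at 1080, 1076 and 787, by -0.19 ± 0.10 (adjusted p = 0.433, limma). Ptbp3 was lower on each day as well, by -0.19 ± 0.10 (adjusted p = 0.446, limma). Tra2b (0.32) and Srsf6 (0.25) lay above control on each day and the second Hnrnpr entry (-0.37) below it, without passing the test. With 1 library left out, Srsf7 ranged from 0.19 to 0.53, Tra2b from 0.12 to 0.49 and Mbnl3 from -0.25 to -0.12, with the smallest size without the control library of day 12 for Srsf7 and Tra2b and without that of day 6 for Mbnl3. Without day 6, Hnrnpm was called higher, with 1.4% of all genes tested called. Between the knockdown arms again none of the 42 was called, where 1.7% of all genes tested were higher and 1.56% lower in the lincRNA-p21 arm. The unadjusted p was under 0.05 (limma) for 5 of the 42 and for 2381 of the 12541 genes tested. The lowest adjusted p among the 42 belonged to Mbnl3, 0.37 ± 0.10 higher in the lincRNA-p21 arm (adjusted p = 0.084, limma), and Celf5, -0.55 ± 0.15 (adjusted p = 0.0877, limma). Hnrnpf (0.25) and Ptbp1 (0.29) lay higher and Hnrnpa3 (-0.63) and Ptbp3 (-0.27) lower in the lincRNA-p21 arm on each day, none of them called. With 1 library left out, Hnrnpf ranged from 0.11 to 0.37, Ptbp1 from 0.16 to 0.38 and Hnrnpa3 from -0.82 to -0.42. The smallest sizes came without the lincRNA-p21 library of day 12, the Hnrnpk library of day 6 and the Hnrnpk library of day 9. Mbnl3 and Celf5 were also called between the Hnrnpk arm and control, and the comparisons share the Hnrnpk libraries; the second Hnrnpr entry, called there too, had an adjusted p of 0.731 here (limma). Without the control library of day 6, Celf5, Hnrnpa3 and Mbnl3 were called between the knockdown arms, with 7.65% of all genes tested. Over all comparisons and slopes, 19 of the 42 genes were called at least once and 23 in none. The share of all genes tested that were called at least once was not computed. Day 9 against day 6 alone called 39.9% of them, so the count is not a result about the set.

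Lists of other splicing genes, 158 names of which 151 were tested, put the set in its setting. Between days 6 and 9, 22 rose (14.6%) and 31 fell (20.5%; limma), against 18.9% and 21% of all genes tested. Of 14 Sm and LSm proteins, which form the core ring of spliceosomal particles, 4 rose and none fell, among them Snrpg (1.37 ± 0.23 SE, adjusted p = 0.00242, limma). Of 18 factors of the branch site and 3 prime splice site, 2 rose and 4 fell, including Sf3b1, the branch-site protein, at 0.63, and its partners Sf3a2 at -1.17 and Sf3b4 at -1.08. Of 25 SR-related and exon junction factors, 3 rose and 8 fell, including the neuronal Srrm4 at -1.02. Of 8 kinases and related regulators of SR proteins, Clk2 (-0.48) and Clk3 (-0.30) fell. Of 13 nonsense-mediated decay factors 4 fell. None of the 151 was called between days 9 and 12.

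The slope of the Hnrnpk difference gave 25 of the 151 higher (16.6%) and 1 lower (0.7%; limma), against 5.06% and 4.3% of all genes tested. Sm and LSm proteins contributed 9 of 14, with a median slope of 0.56. Snrpd3 had 2212.5, 2722 and 1823 in control and 1885, 4285 and 5270 in the Hnrnpk arm (slope 0.88 ± 0.10 SE, adjusted p = 0.0167, limma). The exon junction protein Magoh had 1259, 1263.5 and 921.5 in control and 1124, 1987 and 2501 in the Hnrnpk arm (slope 0.80). U2af1, which recognises the end of the intron, had a slope of 0.77. Averaged over days, 5 of the 151 were higher and 5 lower with the Hnrnpk hairpin than in control, 3.3% each way against 5.58% and 6.94% of all genes tested. With the lincRNA-p21 hairpin none was called against control, by level or slope.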

How the data were processed

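RNA of 9 libraries, 1 per arm and day, was measured. The authors deposited 1 table of normalised signal for 12550 genes by library; RSEM 1.2.12, Bowtie 1.0.1 and the build mm10 are named, per the submitters' processing notes. The scaling behind the signal is not given in the sources. Read numbers and depth per library are unknown, so no count test was run. The number of value columns without a library was 0.

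The log2 of the signal plus 10 was analysed. A mean of 20 over the libraries was required, which 12541 genes reached and 9 did not. The tests used limma 3.58.1 in R 4.3.3 with additive terms for arm and day (4 residual and 4.46 prior degrees of freedom), an intensity trend and Benjamini-Hochberg adjustment at 0.05 over all genes. Slopes used arm-by-day terms in units of 3 days (2 residual degrees of freedom). Overlapping genes came from GENCODE M21 and promoters from RefSeq.

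The genes, pathway lists and marker lists were chosen with earlier results of these data known. Named genes are the hairpin targets; called genes of each arm comparison, or, where fewer than 3 were called, the 3 in each direction that differed most on the day of smallest difference; up to 6 called genes per direction for each day step; the highest and lowest mean of each family; and up to 3 called genes per direction of each pathway list. Some of these are given by count. Alternatives were the amount added, the filter, other scalings, no intensity trend, fewer days or arms, and leaving out each library.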

Additional observations from a re-analysis of the deposited data

Results flagged for a closer look

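In 5 of the 42 genes (11.9%) the difference between the Hnrnpk arm and control differed between days by the test of the slope itself (limma, adjusted p under 0.05). Of all genes tested 5.06% were called with a slope above 0 and 4.3% with a slope below 0. The slope per 3 days on the log2 scale was 0.59 for Tra2a, 0.59 for Hnrnph3, 0.55 for Hnrnph1, 0.51 for Tra2b and 0.49 for Srsf7. The difference was below 0 on day 6 and above 0 on days 9 and 12 in each of the 5 genes. The lincRNA-p21 arm shares the control libraries. Its slopes were 0.56 for Hnrnph3, 0.52 for Hnrnph1, 0.28 for Tra2a, 0.25 for Tra2b and 0.19 for Srsf7, none of them called. Leaving out 1 library kept the call of the Hnrnpk slope in 2 of 9 fits for Tra2a and Tra2b, in 3 of 9 for Srsf7 and in 4 of 9 for Hnrnph1 and Hnrnph3. Without the intensity trend Tra2a alone was called.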

How the results depend on the processing

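No difference of the set that was called in the main fit changed sign in the alternatives run. The same held for the leading uncalled differences given for the 2 comparisons of the lincRNA-p21 arm. Other differences of named genes were not followed in this way. The medians and counts of single days were not recomputed under them. Counts of called genes among the 42 were as follows (limma). Percentages in brackets are the shares of all genes tested that were called in the same fits. For the Hnrnpk arm against control (3, 12.5%), the count was 7 without day 6 (23.9%), 0 without day 9 (0.199%), 0 without day 12 (2.93%) and 0 with only the 2 arms (2.63%). Leaving out 1 library gave 0 to 5 (4.46% to 16.3%). The calls were 1 higher and 2 lower with all libraries, 5 and 2 without day 6, and 4 and 1 without the control library of day 6. For the lincRNA-p21 arm against control (0, 0.00797%) the count was 1 without day 6 (1.4%). For the lincRNA-p21 against the Hnrnpk arm (0, 3.26%) it was 1 with only the 2 arms (5.15%), and leaving out 1 library gave 0 to 3 (0.0319% to 7.65%). For day 9 against day 6 (14, 39.9%), leaving out 1 library gave 10 to 22 (24.4% to 44.7%). For day 12 against day 9 (0, 0.654%) the count was 5 without day 6 (6.64%), and leaving out 1 library gave 0 to 3 (0.00797% to 3.36%). For the Hnrnpk slope (5, 9.35%) it was 1 without the intensity trend (4.75%), and leaving out 1 library gave 0 to 19 (0% to 22.2%). For the lincRNA-p21 slope (0, 0%), leaving out 1 library gave 0 to 6 (0% to 5.82%). The count was 4 or more without the control library of day 9 or 12 or any Hnrnpk library (3.86% to 5.82%). A fit with fewer libraries has fewer residual degrees of freedom; beyond that the cause was not tested. Slopes could not be fitted with 2 days. Scaling by a trimmed mean of ratios shifted single libraries by -0.0366 to 0.0356 on the log2 scale, and scaling to a shared median by -0.0052 to 0.0156. With the replicates merged and the depth unknown, counting error could not be given, and shared signal steps limit the most abundant genes. Day was a term in every fit, so arms were compared within days; the labels carry no replicate numbers to add as a further block.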

Other observations

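Of 46 other splicing regulators tested, 10 rose (21.7%) and 11 fell (23.9%) between days 6 and 9 (limma), where 18.9% of all genes tested rose and 21% fell. Esrp1, which drives the epithelial splicing pattern, had a signal of 58, 83 and 27 in the control, Hnrnpk and lincRNA-p21 arms on day 6 and of 576.5, 855.5 and 458.5 on day 9 (3.33 ± 0.16 SE, adjusted p = 1.15e-05, limma). Every day 9 library was far above every day 6 library. Cirbp, a cold-inducible RNA-binding protein, went from 373, 516.5 and 320.5 to 1200, 1921.5 and 1171 (1.79 ± 0.11 SE, adjusted p = 2.9e-05, limma). Rbm47, another epithelial regulator, went from 17.5, 29.5 and 19 to 56, 131 and 66.5. Rbm38 (-1.24), a p53-induced RNA-binding protein, Khdrbs3 (-1.03) and Ybx1 (-0.94) fell. The summed signal of the 12 epithelial markers, Esrp1 included, was 6288.5 to 11858 on day 6 and 23584 to 37762.5 on day 9.

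In the Hnrnpk arm against control, 4 of the 46 were higher and 4 lower, 8.7% each way, where 5.58% of all genes tested were higher and 6.94% lower. Rbpms2, an RNA-binding protein of smooth muscle precursors, had 126, 100 and 131.5 in control and 293, 515 and 737.5 in the Hnrnpk arm on days 6, 9 and 12 (1.94 ± 0.25 SE, adjusted p = 0.00409, limma). Its relative Rbpms had 418.5, 238.5 and 320 against 585, 618 and 724.5 (0.99 ± 0.16 SE, adjusted p = 0.00872, limma). In both genes every Hnrnpk library lay above every control library. Khdrbs3, a splicing regulator of the STAR family, was lower, at 284, 155.5 and 129 against 490, 240.5 and 214 (-0.68 ± 0.12 SE, adjusted p = 0.0107, limma). Esrp1 differed by -0.91 ± 0.16 between the lincRNA-p21 and Hnrnpk arms, lower in the former (SE; adjusted p = 0.025, limma).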
